A study of Mus musculus with 38 samples.

Results

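The forestomach of the mouse is the non-glandular, squamous part of the stomach, and it borders directly on the glandular stomach, which secretes acid, pepsinogen and mucus. All 19 forestomach arrays of the series, of 38 arrays in all, were grouped by 3 genes of the glandular stomach. These were Atp4a and Atp4b, the subunits of the proton pump of parietal cells, and Cblif, which encodes gastric intrinsic factor. Arrays whose mean log2 ratio of the 3 genes was above 2 were called gland-containing, which gave 13 arrays, and the remaining 6 were called gland-free. Because these values chose the sets, the 3 genes are a description and are left out of all counts, and no test was made of any difference between the sets in forestomach.

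The mice were male MutaMouse aged about 10 weeks, a transgenic strain that carries a bacterial reporter gene for mutation assays. They were gavaged each day for 28 days with olive oil alone (D0) or with dibenz(ah)anthracene (DBahA), a polycyclic aromatic hydrocarbon, in olive oil. The doses were 6.25 (D1), 12.5 (D2) and 25 mg/kg-bw/day (D3), and tissue was collected 72 h after the last dose. RNA came from random sections of the removed organ, and the labels name no dissection of the forestomach from the glandular stomach. Every array paired the tissue RNA in Cy5 with a universal reference RNA from mouse cell lines in Cy3, with no dye swap, and each value is log2(Cy5/Cy3). The labels give the mouse number 18 to 2 arrays of D3 and do not say whether both came from 1 animal.

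The 2 compartments differ in every layer of the epithelium. A stratified squamous epithelium renews itself from a basal layer that is marked by Trp63 and the keratins Krt5 and Krt14, and its upper layers build a cornified envelope from proteins such as loricrin. Glandular mucosa is a simple columnar epithelium with surface mucous (pit) cells, mucous neck cells, parietal cells, chief cells and endocrine cells, and it is specified by transcription factors of the GATA, FOXA and HNF families.

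The mean of the 3 splitting genes fell into ranges that lay far apart. It was between 5.00 and 7.25 in the gland-containing arrays and between -0.06 and 0.13 in the gland-free arrays, so no array lay near the threshold of 2. The array closest to it from above was that of D3 mouse 17, and the closest from below was the first of the arrays labelled mouse 18. The gland-free arrays were those of mice 2 and 5 of D0, mice 8 and 9 of D1, mouse 15 of D2 and array 1 of mouse 18 of D3. The second array labelled mouse 18 lay at 6.96, among the highest of the gland-containing arrays. Each of the 3 genes on its own put the arrays in the same sets, with Atp4a at 4.31 to 6.62 against -0.18 to 0.13, Atp4b at 4.88 to 6.60 against -0.19 to 0.18 and Cblif at 5.83 to 8.52 against -0.01 to 0.40.

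**Figure D1:**
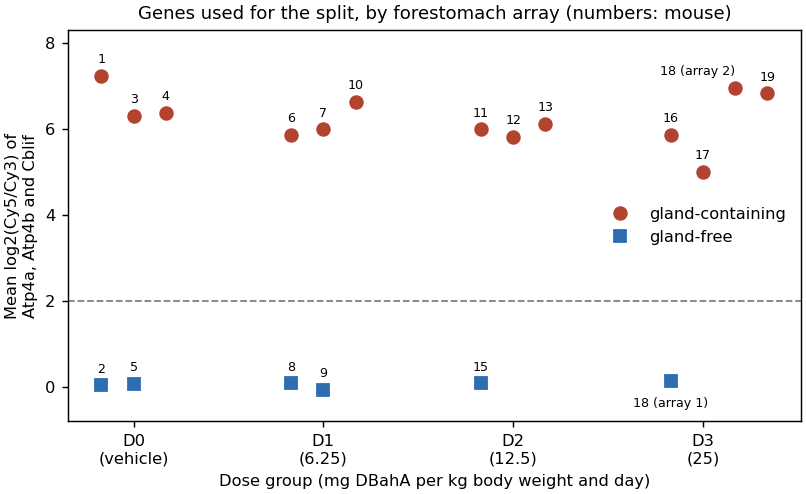
Mean log2(Cy5/Cy3) of Atp4a, Atp4b and Cblif on the vertical axis for each of the 19 forestomach arrays, by dose group on the horizontal axis, with mouse numbers beside the points. Circles are the 13 gland-containing and squares the 6 gland-free arrays, the dashed line is the threshold of 2, and every dose group holds arrays of both sets.

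Both sets were present at every dose. Gland-free arrays made up 2 of 5 at D0, 2 of 5 at D1, 1 of 4 at D2 and 1 of 5 at D3, and Fisher's exact test of set by dose group gave p = 1 (two-sided, n = 19). The arrays were spread over 5 slides, and slides 2 to 5 each held both sets, whereas slide 1 held 3 gland-containing arrays only. Fisher's exact test of set by slide gave p = 0.802 (two-sided, n = 19). Between 30.1% and 60.8% of the probes were well above background in Cy5 on the gland-containing arrays and between 30.4% and 53.8% on the gland-free arrays, so the sets overlapped in the share of probes detected. Precision depends on how many arrays each set holds and on the spread between arrays, as the SE was 0.25 for Gkn2 and 0.67 for Kcne2.

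The labelled squamous tissue was present on every array of both sets. Krt5 and Krt14, the keratin pair of the basal layer, were well above background on all 19 arrays. The log2 ratio of Krt5 ranged from 3.14 to 3.86 (median 3.47) in the gland-containing and from 3.14 to 3.61 (median 3.50) in the gland-free arrays. That of Krt13, a keratin of the upper layers, ranged from 4.18 to 5.12 (median 4.55) and from 4.43 to 4.89 (median 4.73), and that of Lor, which encodes loricrin, ranged from 6.58 to 7.83 (median 7.27) and from 6.52 to 7.23 (median 6.90). The sets overlapped for each of these keratins and for Lor, so squamous markers were measured in both sets. The mean log2 Cy3 signal, relative to each array's median, was lower for them in the gland-containing arrays. It differed by -0.65 for Krt5, -0.72 for Krt14, -0.86 for Krt13 and -0.39 for Lor. Similar ratios of these genes thus do not mean equal Cy5 signals.

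Every gene that separated the sets was higher in the gland-containing arrays. A probe was said to separate the sets when no array of one set overlapped the other and the dose-adjusted difference was at least 1 on the log2 scale, a fold of 2. Of 55678 probes outside the 3 splitting genes, 355 separated the sets as higher in the gland-containing arrays, 0.638% of all, and 0 as lower. With 1 probe per gene, the brightest in forestomach, this held for 268 of 20015 genes, 1.34% of all. Since the sets were selected on values of the same arrays, nothing is read from these shares. At a share of 1.34%, a short list in which 0 genes separated the sets does not stand apart from all genes. Under median centring of each array in place of loess, 194 probes separated the sets, 176 of them among the 355. The differences were at least 4 for 50 of the 268 genes, between 2 and 4 for 125 and below 2 for 93. The gene nearest to the limit from above was Plet1, with a difference of 1.02 ± 0.27 (SE) for that probe, and the nearest from below was Tinag, with 0.99 ± 0.29. Of the 268 genes, 92 were well above background on none of the gland-free arrays and 85 on all 6 of them.

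**Figure D2:**
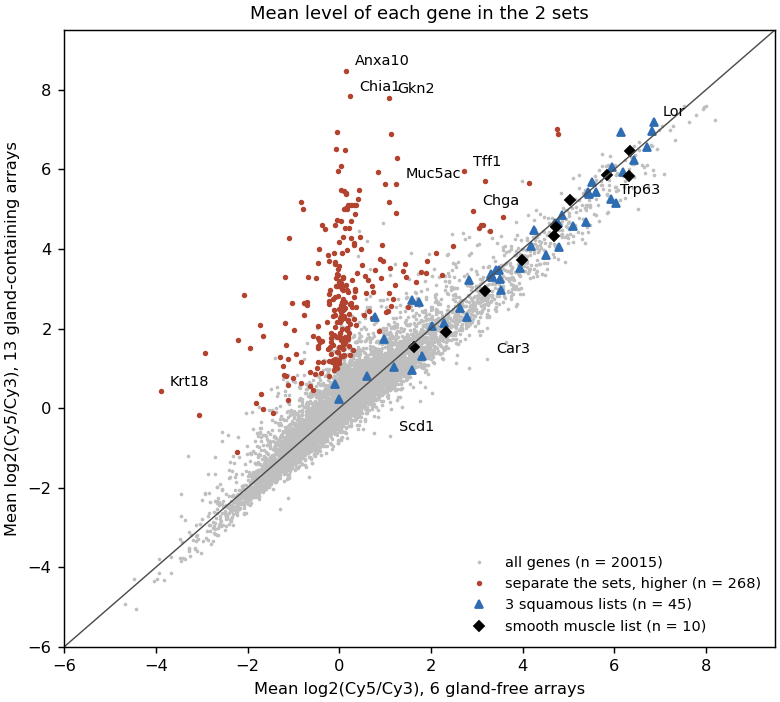
Mean log2(Cy5/Cy3) of 20015 genes in the 6 gland-free arrays (horizontal axis) and the 13 gland-containing arrays (vertical axis). Red points are the 268 genes that separated the sets and all lie above the line of equal means, while the genes of the squamous lists (triangles) and the smooth muscle list (diamonds) lie along it.

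The 15 genes with the largest differences in log2 ratio were led by Anxa10, Chia1 and Tspan1. Anxa10, a member of the annexin family, ranged from 6.41 to 9.95 (median 8.29) in the gland-containing and from -0.06 to 0.48 (median 0.11) in the gland-free arrays. Its difference was the largest with loess, but with the log ratio of Feature Extraction it was 8.91, below the 8.96 of Ctse. Since it was not well above background on any gland-free array, the difference of Anxa10 is given as at least 384-fold. Such bounds set the mean Cy5 signal of the gland-containing arrays, after scaling between arrays, against the higher of the lowest well-measured signal and the probe's own on each gland-free array. They are open to dye bias, as no dyes were swapped. Chia1, an acidic chitinase that chief cells secrete in the mouse, ranged from 5.65 to 8.72 (median 8.04) and from -0.34 to 1.02 (median 0.30), a dose-adjusted difference of 7.63 ± 0.35 (SE). Both genes were high on all 13 gland-containing arrays, and the lowest of these arrays for Chia1 was that of D3 mouse 17, as for the splitting genes.

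Gkn2, a gastrokine that surface mucous cells secrete, ranged from 6.77 to 8.48 (median 7.83) in the gland-containing and from 0.07 to 1.93 (median 1.05) in the gland-free arrays, a difference of 6.68 ± 0.25. The gland-free arrays were not uniform for it, as D0 mouse 5 had 1.75 and array 1 of mouse 18 had 1.93, whereas D1 mouse 8 had 0.07. Clps, which encodes the lipase cofactor colipase, ranged from 5.55 to 7.76 (median 6.89) and from 0.08 to 2.09 (median 1.12) and was also highest among gland-free arrays in array 1 of mouse 18. The other genes with the 15 largest differences included Agr2, a disulfide isomerase needed for mucin folding, which was at least 195-fold higher in the gland-containing arrays. Tspan1, a tetraspanin, was at least 140-fold higher, and Sult1c2, a sulfotransferase, at least 107-fold. Ctse, the gastric aspartic protease cathepsin E, was at least 64.8-fold higher and Vsig1, a junctional protein of the gastric epithelium, at least 52.4-fold. Ifi27l2b was at least 24.2-fold higher. Pdia2, a disulfide isomerase of secretory cells, differed by 6.63 ± 0.24, the mucin-like Mucl3 by 6.35 ± 0.22, the tetraspanin Tspan8 by 5.36 ± 0.59 and the acyltransferase Mogat1 by 5.35 ± 0.60. Kcne2 is described with the other genes of acid secretion. Within the slides that held both sets, the smallest difference among the 15 was 4.67, for Ifi27l2b. A difference above 0 there is no support, as the 15 were chosen among genes whose sets do not overlap.

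The reference channel was not the same on all arrays at some of these genes, although it held the same RNA throughout. For Tff2 the log2 Cy3 signal, relative to each array's median, was from 1.44 to 6.89 in the gland-containing and from -0.88 to -0.53 in the gland-free arrays, and for Gkn2 it was from 2.91 to 5.48 and from -0.84 to -0.54. In the other direction, 20 of 23 genes of the squamous upper layers had a lower mean Cy3 signal in the gland-containing arrays, with a median difference of -0.70, and 2 of them did not overlap. Krt13 ranged from 3.79 to 5.42 and from 5.00 to 6.19 in Cy3. Of the 268 genes, 34 had Cy3 signals that were higher on every gland-containing array, against 35 of all 20015 genes. Another 17 of the 20015 were lower on every gland-containing array. For 45 of the 268 the mean Cy3 signals differed by more than 1 on the log2 scale. Where Cy3 moves with Cy5, the log2 ratio understates the difference in Cy5, so that equal ratios need not be equal Cy5 signals and a bound on Cy5 can exceed the ratio difference. The origin of the Cy3 signal was not tested.

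The gastrokine and annexin genes are shown by their promoters because they were among the genes with large differences. Each is a run of 300 bases from RefSeq on build GRCm38.p6 that begins upstream of the transcript start and ends shortly after it. Capitals mark the letters GATAA or the letters GATAG and a forkhead run of either TGTTTAC or else TATTTAC or else TGTTTGC on either strand, searched because GATA and FOXA factors were among the genes that differed. The motifs may overlap.
Gkn1, chr6:87350866-87351165, minus strand: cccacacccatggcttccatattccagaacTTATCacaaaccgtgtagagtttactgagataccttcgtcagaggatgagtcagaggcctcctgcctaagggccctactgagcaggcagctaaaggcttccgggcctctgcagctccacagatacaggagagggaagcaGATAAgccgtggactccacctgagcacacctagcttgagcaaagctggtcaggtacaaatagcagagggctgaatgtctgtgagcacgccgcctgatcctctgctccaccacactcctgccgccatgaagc
Gkn2, chr6:87373115-87373414, plus strand: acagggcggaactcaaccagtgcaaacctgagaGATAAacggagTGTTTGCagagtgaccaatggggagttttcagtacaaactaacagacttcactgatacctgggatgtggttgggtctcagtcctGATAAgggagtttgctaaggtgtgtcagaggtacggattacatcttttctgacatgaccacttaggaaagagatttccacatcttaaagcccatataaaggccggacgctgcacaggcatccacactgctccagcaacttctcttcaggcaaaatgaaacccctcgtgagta
Anxa10, chr8:62123144-62123443, minus strand: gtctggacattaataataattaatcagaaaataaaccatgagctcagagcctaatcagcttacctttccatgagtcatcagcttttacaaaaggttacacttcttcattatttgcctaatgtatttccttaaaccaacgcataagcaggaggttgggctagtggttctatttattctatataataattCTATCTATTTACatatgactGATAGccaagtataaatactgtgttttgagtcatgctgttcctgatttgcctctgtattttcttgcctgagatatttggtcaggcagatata
The GATA letters were found at 2 places in each of the 3 promoters, and the forkhead letters at 1 place in Gkn2 and 1 in Anxa10 but not in Gkn1. The promoter of Pgc, which encodes a pepsinogen and also separated the sets, was searched too and held 0 places of either kind. Of 32851 promoters in the table, 41.6% held the GATA letters and 11.2% the forkhead letters. Among 247 promoters of 201 genes that separated the sets, the shares were 42.5% and 14.6%. A match is only a run of letters and not a binding site.

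Most genes of surface mucous cells separated the sets. Of 9 listed genes, 8 separated the sets, against 268 of 20015 genes, 1.34%, over all. The median difference of the list was 3.14, against -0.01 over all genes. Muc5ac, the secreted surface mucin, ranged from 4.59 to 6.78 (median 5.53) in the gland-containing and from 1.01 to 1.66 (median 1.15) in the gland-free arrays, and it was well above background on all 19. Tff1, a trefoil peptide co-secreted with it, ranged from 5.44 to 6.37 (median 6.04) and from 1.18 to 4.00 (median 2.78), so that the gland-free arrays of D0 mouse 5, D2 mouse 15 and array 1 of mouse 18 reached 4.00, 3.48 and 3.95. The gene that did not separate the sets was Capn9, a gut calpain, which ranged from -0.43 to 2.84 (median 2.46) in the gland-free arrays and from 2.79 to 4.18 (median 3.47) in the gland-containing arrays. Gkn1 differed by 3.81 ± 0.54, Sytl2 by 2.04 ± 0.40 and the tight junction gene Cldn18 by at least 3.86-fold. For Muc5ac, Tff1 and Capn9 a signal was thus measured also where the splitting genes were near 0, and gland-free refers only to those 3 genes.

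Mucous neck cell, chief cell and parietal cell genes followed the same direction. Tff2, the trefoil peptide of neck cells, ranged from 4.31 to 5.59 (median 4.97) in the gland-containing and from -0.06 to 0.58 (median 0.13) in the gland-free arrays, at least 626-fold. Gkn3 differed by 3.72 ± 0.31, A4gnt and the water channel Aqp5 overlapped, and 2 of 4 measured genes of this list separated the sets. Of 5 chief cell genes 3 did, among them Pgc and Pga5, which encode pepsinogens. The share over all genes was 1.34%. Pgc ranged from 3.89 to 6.29 (median 5.03) and from 0.04 to 0.68 (median 0.36), a difference of 4.81 ± 0.26, and Pga5 was at least 13.9-fold higher. Lipf, gastric lipase, was well above background on 4 of 13 and 1 of 6 arrays, with a difference of 0.00 ± 0.13.

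Of 11 measured genes of acid secretion, 6 separated the sets, all 11 had a difference above 0, and the median was 1.91. Over all 20015 genes, 268 separated the sets as higher and 9328 had a difference above 0. Kcnq1 and Kcne2, the potassium channel that recycles potassium for the proton pump, varied widely among the gland-containing arrays. Kcne2 ranged from 2.89 to 7.74 (median 5.03) there and from -0.06 to 0.13 (median 0.04) in the gland-free arrays, at least 29.5-fold, and its lowest gland-containing array was D1 mouse 6 while its highest was D0 mouse 1. Kcnq1 ranged from 2.52 to 6.69 (median 4.72) and from -0.16 to 0.39 (median -0.03). Clic6, a chloride channel protein, ranged from 3.88 to 5.22 (median 4.54) and from 0.15 to 0.27 (median 0.19), at least 153-fold, and its log2 Cy3 signal was from 0.39 to 5.43 and from -1.44 to -0.87, so that the spread of the ratio is not that of the Cy5 signal. Esrrg, a nuclear receptor of parietal cells, was at least 6.76-fold higher and Kcnj15, a potassium channel, differed by 2.70 ± 0.42. Slc26a9, an anion exchanger of surface cells, ranged from 2.79 to 6.31 (median 4.00) and from 1.63 to 3.35 (median 2.51) and overlapped, as did the sodium-proton exchanger Slc9a4 and the gastrin receptor Cckbr.

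Of 13 listed genes of gastric endocrine cells, Ghrl, Sst and Chga separated the sets, against 1.34% of all genes, whereas 1 did under median centring. A difference above 0 was found for 12 of the 13, against 9328 of all 20015 genes, and the list median was 0.88. Sst, which encodes somatostatin, ranged from 2.20 to 4.80 (median 3.46) in the gland-containing and from -0.06 to 0.07 (median -0.02) in the gland-free arrays, at least 26-fold. Ghrl, which encodes ghrelin of the acid-producing mucosa, ranged from 2.25 to 3.59 (median 2.94) and from 0.04 to 1.11 (median 0.16), with its highest gland-free value in D1 mouse 8. Chga, the granule protein chromogranin A, ranged from 4.08 to 5.99 (median 4.81) and from 2.66 to 3.16 (median 2.89), so it was measured in both sets and higher on every gland-containing array. Chgb, its relative, overlapped, as it ranged from 1.99 to 5.95 (median 3.49) and from 0.96 to 2.21 (median 1.54). Gast, which encodes gastrin of the antral part of the stomach, was near 0 in both sets, where it ranged from -0.15 to 0.51 (median 0.10) and from -0.05 to 0.36 (median 0.03), and was well above background on 3 of 13 and 2 of 6 arrays. Pdx1 and Nkx6-3, transcription factors of the antrum, were well above background on 2 and 0 of the 13 gland-containing arrays. Ghrl thus separated the sets, whereas Gast, Pdx1 and Nkx6-3 did not.

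Transcription factors of the glandular epithelium were likewise higher. Of 13 listed, 5 separated the sets, namely Gata4, Foxa2, Foxa3, Hnf4a and Spdef, against 1.34% of all genes. All 13 had a difference above 0, with a median of 2.00, against 9328 of all 20015 genes above 0. Under median centring 3 separated the sets and with the log ratio of Feature Extraction 8. Foxa2, a pioneer factor of endoderm, ranged from 1.01 to 5.59 (median 3.59) in the gland-containing and from -0.94 to -0.14 (median -0.42) in the gland-free arrays, at least 11.7-fold. Hnf4a ranged from 2.84 to 4.48 (median 3.65) and from 0.10 to 1.66 (median 0.29), and its highest gland-free value was in array 1 of mouse 18, ahead of 0.37 in D1 mouse 9. Hnf4a is also a factor of liver and intestine. Gata4 ranged from 0.26 to 2.92 (median 1.78) and from -0.71 to -0.25 (median -0.40), and its gland-containing range reached down close to the gland-free one. Gata6 and Foxa1 overlapped between the sets, with differences of 2.00 ± 0.51 and 2.43 ± 0.41. Spdef, a factor of mucous secretory cells, differed by 4.00 ± 0.53.

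Simple epithelial keratins, named here after their values were seen, behaved like the glandular genes. Krt8 ranged from -1.17 to 3.15 (median 1.59) in the gland-containing and from -3.34 to -2.71 (median -2.83) in the gland-free arrays, and its usual partner Krt18 ranged from -2.91 to 2.62 (median 0.80) and from -4.02 to -3.78 (median -3.88). Krt19 differed by 4.51 ± 0.61 and Krt20, a keratin of mature gut surface cells, by 4.95 ± 0.48, whereas Krt7 overlapped with a difference of 0.43 ± 0.19. The negative ratios of Krt8 and Krt18 in the gland-free arrays are relative to the cell line reference, and both probes were well above background on all 6 of these arrays.

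**Figure D3:**
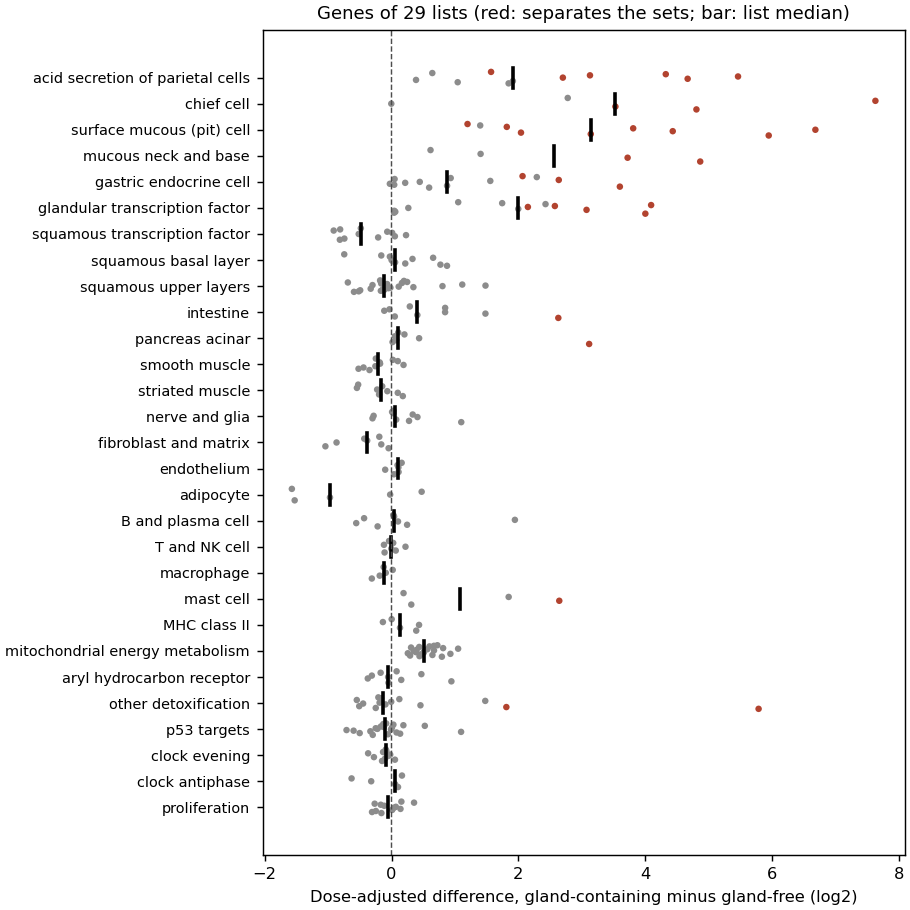
Dose-adjusted difference in log2(Cy5/Cy3), gland-containing minus gland-free, for each measured gene (points) of 29 lists, with black bars for list medians and a dashed line for the median of all genes. Red points separate the sets and stand mostly in the 6 uppermost lists, those of glandular cells and their transcription factors.

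No gene of the squamous lists separated the sets. Over all genes 1.34% separated the sets as higher and 0% as lower, so a count of 0 is no result about squamous genes. Of 11 squamous transcription factors 0 separated the sets and 3 had a difference above 0, against 9328 of all 20015 genes. The median was -0.48, with a negative sign under all 5 normalizations tried. Trp63, the master regulator of stratified epithelia, ranged from 2.99 to 6.50 (median 5.26) in the gland-containing and from 5.56 to 6.45 (median 5.81) in the gland-free arrays, a difference of -0.74 ± 0.42. Grhl3, a factor of barrier formation, ranged from 3.54 to 6.49 (median 4.97) and from 5.83 to 6.59 (median 5.99). For both the gland-free arrays lay within or above the upper part of the gland-containing range. Pitx1 and Klf5 differed by 0.05 ± 0.12 and 0.01 ± 0.12. The median was 0.06 over 11 basal layer genes and -0.11 over 23 genes of the upper layers, which was 0.28 under median centring of the arrays, so the sign of the latter depends on the scaling. In Cy3, 20 of these 23 genes were lower in the gland-containing arrays, with a median difference of -0.70. Of the 11 basal layer genes 8 were lower in Cy3, with a median difference of -0.04, and Krt5 and Krt14 had -0.65 and -0.72. A ratio difference near 0 for genes whose Cy3 signal differs thus does not mean equal Cy5 signals. Krt6a and Krt16, keratins of activated squamous epithelium, had differences of 1.48 ± 0.34 and 1.11 ± 0.36 and overlapped.

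The gland-containing arrays also differed widely among themselves. Their pairwise correlations over all probes ran from 0.713 to 0.966 (median 0.892), against 0.888 to 0.944 (median 0.920) among the gland-free arrays and 0.658 to 0.924 (median 0.836) between the sets. The mean log2 ratio over the 13 glandular transcription factors, their score, ranged from 0.67 to 2.82 in the gland-containing arrays and from -0.12 to -0.01 in the gland-free arrays. The highest was D0 mouse 1, which had the lowest squamous transcription factor score of all 19 arrays, 2.58, and the lowest Trp63, 2.99. The lowest was D1 mouse 6, with a squamous score of 4.09 and Trp63 at 6.27. D2 mouse 12, with the second highest glandular score of 2.57, had a squamous score of 2.88, and D2 mouse 11, with 0.99, had 4.16. Mice 6, 11 and 16 were hybridized on slide 1, so that slide cannot be told apart from these values for them. Slide 2 held arrays across this range. On it, D2 mouse 12 had a glandular score of 2.57 and a squamous score of 2.88, D1 mouse 7 had 2.19 and 3.35, D3 mouse 17 had 1.09 and 3.91, and gland-free D0 mouse 2 had -0.03 and 4.01. Slide 4 did not show such an order within the gland-containing arrays. There, D0 mouse 4 had 1.18 and 3.00, and D3 mouse 19 had 2.32 and 3.00. Gland-free D1 mouse 9 and D2 mouse 15 on slide 4 had -0.02 and 3.37, and -0.07 and 3.73. A relation between the 2 scores was not tested. In bulk tissue, fewer cells of a type and less RNA per cell cannot be told apart.

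**Figure D4:**
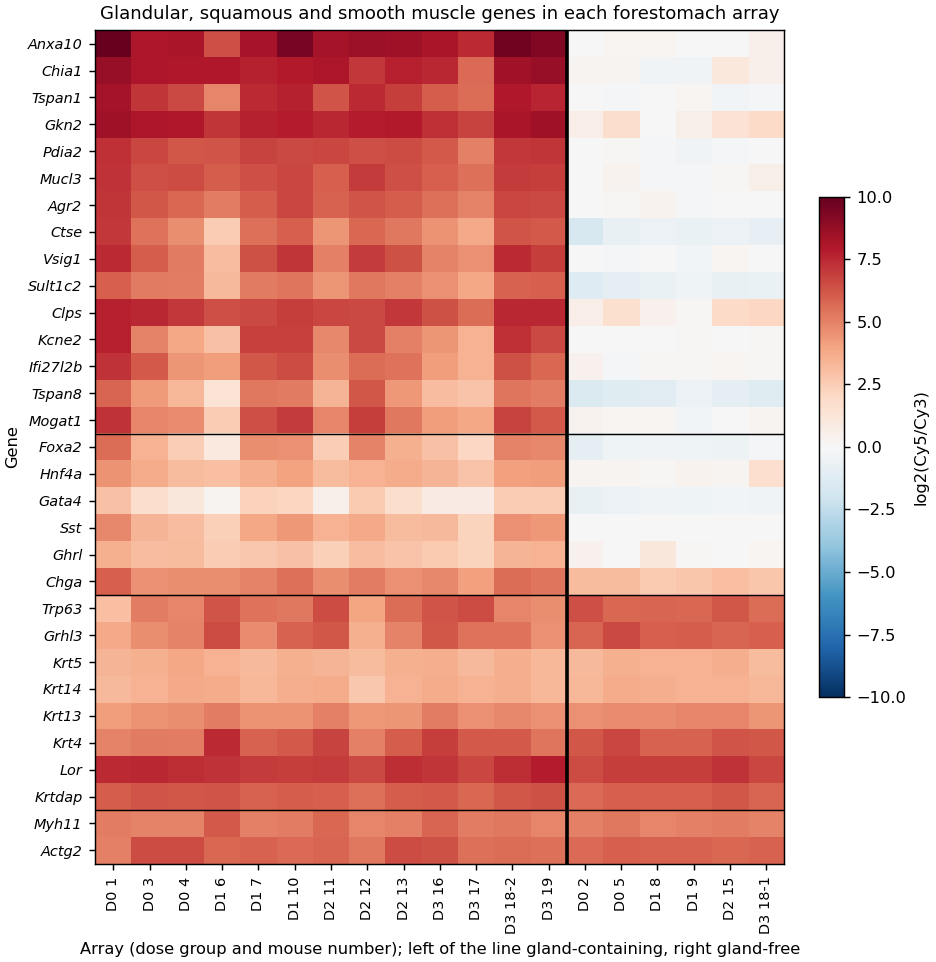
Log2(Cy5/Cy3), by colour, of leading, glandular, squamous and smooth muscle genes (rows) in 19 forestomach arrays (columns, dose group and mouse number). The upper 2 blocks, the leading and the glandular genes, are higher on every array left of the vertical line than on those right of it, where Chga still has ratios of 2.66 to 3.16, while the squamous and smooth muscle blocks are high on all arrays.

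No listed gene of the muscle wall or stroma separated the sets, and the fibroblast genes all had a difference below 0. As 1.34% of all genes separated the sets as higher and 0% as lower, these counts of 0 are no result about muscle or stroma. Smooth muscle genes had a score from 3.36 to 4.87 in the gland-containing arrays and 4.28 to 4.67 in the gland-free arrays, and 0 of 10 separated the sets. Myh11, smooth muscle myosin, ranged from 4.87 to 6.15 (median 5.09) and from 4.86 to 5.30 (median 5.00). In Cy3, all 10 smooth muscle genes had a lower mean signal in the gland-containing arrays, with a median difference of -0.25, and Myh11 had -0.69. Similar ratios of these genes thus do not mean equal Cy5 signals. Of 7 fibroblast and matrix genes none separated the sets, and all 7 had a difference below 0, with a median of -0.38, or -0.13 under median centring. Over all 20015 genes, 9328 had a difference above 0. Lum, the proteoglycan lumican, ranged from 3.00 to 6.10 (median 4.35) in the gland-containing and from 4.98 to 6.06 (median 5.47) in the gland-free arrays, and Dcn, decorin, ranged from 0.89 to 2.11 (median 1.36) and from 1.84 to 2.96 (median 2.24). Neither endothelial genes (median 0.10 over 6) nor genes of nerve and glia (median 0.05 over 10) separated the sets. Vip, a neuropeptide of the gut wall, had a difference of 1.10 ± 0.45.

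All 21 genes of mitochondrial energy metabolism had a difference above 0, against 9328 of all 20015 genes. Their median was 0.51, and 0 separated the sets, against 1.34% of all genes. Their score ranged from 0.25 to 1.65 in the gland-containing arrays and 0.22 to 0.35 in the gland-free arrays. Cox5a, a subunit of cytochrome c oxidase, ranged from 0.20 to 2.55 (median 1.48) and from 0.15 to 0.50 (median 0.35). Its highest values were in the arrays with the highest glandular scores, 2.55 in D0 mouse 1 and 2.31 in D2 mouse 12, and D1 mouse 6 lay within the gland-free range with 0.20. Parietal cells are known for their dense mitochondria.

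Of 4 mast cell genes 1 separated the sets, against 1.34% of all genes, and 0 did under median centring. Mcpt2, a protease of mucosal mast cells, ranged from 0.70 to 4.03 (median 2.77) in the gland-containing and from -0.06 to 0.23 (median 0.04) in the gland-free arrays, at least 7.17-fold. Mcpt1, the other mucosal protease, ranged from 0.02 to 3.36 (median 1.57) and from -0.18 to 0.11 (median 0.01) and overlapped, as D1 mouse 6 had 0.02. Mcpt4 and Cpa3, proteases of connective tissue mast cells, differed by 0.31 ± 0.16 and 0.19 ± 0.45 and were measured on all 19 arrays. Macrophage, T cell and NK cell and MHC class II genes did not separate the sets, with medians of -0.12 over 5, 0.00 over 7 and 0.13 over 5 genes. Of 8 genes of B and plasma cells 0 separated the sets, and 1 did under median centring. Their differences ran from -0.56 to 1.94. The highest was that of Derl3, a gene of protein quality control in the endoplasmic reticulum, with 1.94 ± 0.58, and it overlapped. Jchain, a gene of plasma cells, had 0.10 ± 0.13. Which cells gave these signals was not tested.

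Enzymes of foreign compound metabolism that bear on DBahA were compared too. Of 14 detoxification genes, Sult1c2 and Gsto1 separated the sets, against 1.34% of all genes, and 1 gene did under median centring. Gsto1, a glutathione transferase, ranged from 2.50 to 5.36 (median 3.92) and from 1.60 to 2.34 (median 2.24). Cyp2b10 overlapped, with a difference of 1.48 ± 0.32. Of 9 genes of the aryl hydrocarbon receptor list 0 separated the sets. Nqo1, a quinone reductase, ranged from 1.94 to 3.90 (median 2.79) in the gland-containing and from 1.71 to 2.15 (median 1.84) in the gland-free arrays, a difference of 0.94 ± 0.23. Cyp1a1, the main induced enzyme of this pathway, was at 5.05 in D2 mouse 11 and 3.61 in D0 mouse 5, a vehicle mouse, and below 2 on the other 17 arrays. The carboxylesterases Ces2b and Ces2c and the aldo-keto reductases Akr1c12, Akr1c13, Akr1c14 and Akr1c19, named after their values were seen, also separated the sets, with differences of 4.65 ± 0.52, 5.09 ± 0.52, 2.97 ± 0.54, 3.93 ± 0.59, 3.14 ± 0.59 and 2.81 ± 0.32. Members of these families are near copies of each other, so their probes may share signal.

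Some genes of neighbouring organs stood out on single arrays of either set, and others were raised on several arrays. For intestine, D1 mouse 6 had Fabp2, an enterocyte lipid carrier, at 6.99, against 2.69 at most on the other 18 arrays. Zg16 and Prap1, genes of gut epithelium named after their values were seen, were at 5.27 and 5.23 there and at most 0.21 and 0.34 elsewhere. The intestinal transcription factors Cdx1 and Cdx2 and the mucin Muc2 were well above background on 1, 0 and 0 of 13 gland-containing arrays. Of 9 intestinal genes 1 separated the sets, against 1.34% of all genes. This was Vil1, a brush border protein, which ranged from 1.02 to 4.22 (median 2.50) and from -0.38 to 0.05 (median -0.08).

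Of 9 genes of proteins that liver secretes, also named after their values were seen, 6 were highest in array 1 of mouse 18, a gland-free array, namely Alb, Ambp, Gc, Fgg, Serpinc1 and Mup20. Fgg, a fibrinogen chain, was at 5.15 there and at most 2.62 on the other 18 arrays, and Serpinc1, antithrombin, was at 4.80 and at most 1.88. Mup20, a major urinary protein whose family members are near copies, was at 8.43 and at most 5.50 elsewhere. The other 3 were highest in gland-containing arrays. Apoa1 and Ttr, which encode apolipoprotein A-I and transthyretin, were at 5.92 and 6.10 in D0 mouse 1, against 2.49 and 4.46 in array 1 of mouse 18, and Apoc3, another apolipoprotein, was at 5.15 in D1 mouse 6 against 3.99. Fabp1, a lipid carrier of both liver and intestine, was high only in D1 mouse 6 (7.43) and in array 1 of mouse 18 (7.09), the next being 3.68. The second array of mouse 18 had 0.61 for Fgg and 2.73 for Fabp1. The 2 arrays labelled mouse 18 thus differed in glandular genes and in these genes, and their log2 ratios correlated at 0.773 over all probes.

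Striated muscle genes were high in D2 mouse 12 and D1 mouse 8, 1 array of each set. Ttn, the sarcomere protein titin, was at 5.87 and 3.94 on these and at most -0.12 on the other 17, and Myh1, a fast myosin, was 5.27 and 5.18 against at most 0.15. Fat genes were high in 3 of 6 gland-free arrays and in 2 of 13 gland-containing arrays. Adipoq, the adipocyte hormone adiponectin, was at 4.46, 3.60 and 4.39 in D0 mouse 2, D1 mouse 8 and D2 mouse 15, and at 2.81 and 2.32 in D1 mouse 6 and D2 mouse 12, with at most 0.44 on the other 14. The adipocyte list had a median difference of -0.97, the lowest of the 29 lists, and 0 of its 5 genes separated the sets. Car3, Thrsp and Scd1, with the lowest differences among all genes, had -2.14 ± 0.72, -1.88 ± 0.64 and -1.83 ± 0.46 and overlapped. Car3 and Thrsp did not follow Adipoq on every array. They were at 3.83 and 3.34 in array 1 of mouse 18, where Adipoq was at most 0.44 and Scd1 was at -0.25. Of 7 genes of the exocrine pancreas, only Pnliprp1 separated the sets, against 1.34% of all genes. It ranged from 0.96 to 5.63 (median 2.19) and from -0.04 to 0.10 (median 0.06). Pnlip and Cpa1, defining genes of that gland, were well above background on 0 and 0 of the 13 gland-containing arrays. Other genes of pancreatic enzymes, named after their values were seen, did separate the sets. The trypsinogens Try4, Try5, Prss1 and Prss2, which are near copies of each other, were at least 23.2-fold, 17.8-fold, 4.53-fold and 3.67-fold higher in the gland-containing arrays, and the phospholipase Pla2g1b differed by 4.54 ± 0.25. Whether such tissue was in the sections was not tested.

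**Figure D5:**
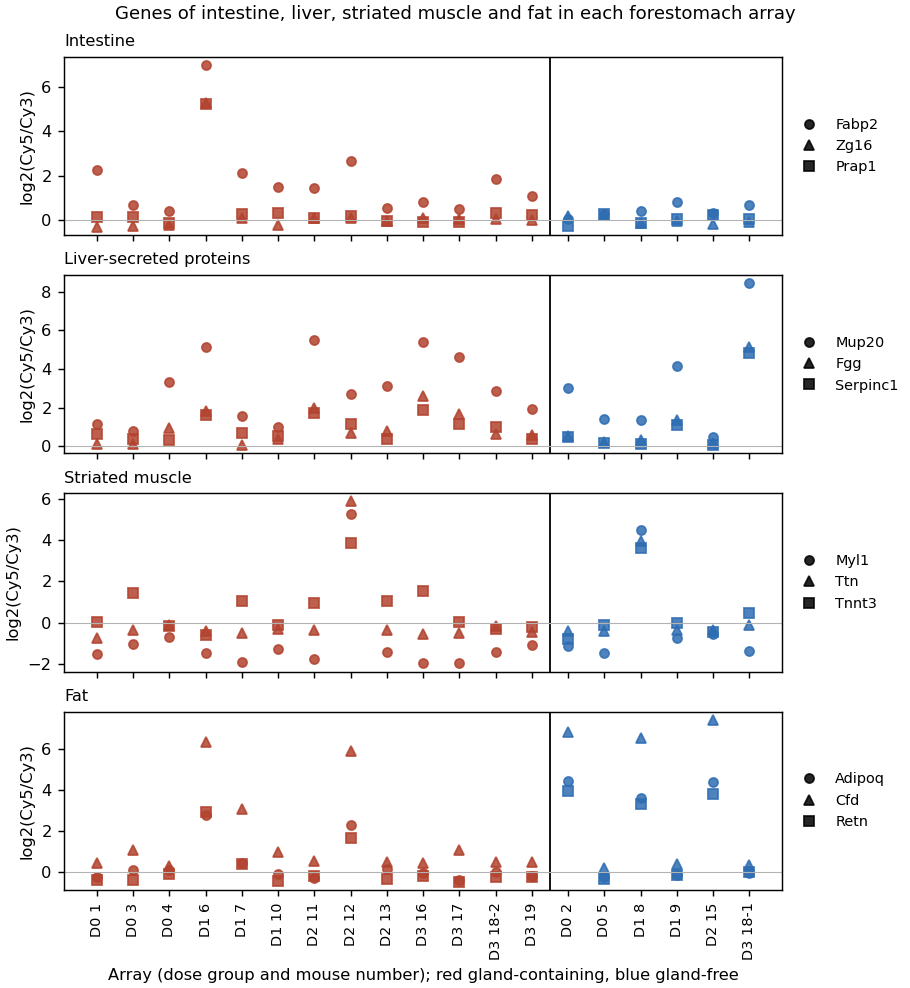
Log2(Cy5/Cy3) of 3 genes each of intestine, liver, striated muscle and fat (vertical axes) in the 13 gland-containing (red) and 6 gland-free (blue) arrays. Single arrays stand apart, D1 mouse 6 for intestine, array 1 of mouse 18 for the 3 genes of liver-secreted proteins and D2 mouse 12 and D1 mouse 8 for striated muscle, and fat genes are high on 5 arrays.

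Genes that were lower in the gland-containing arrays without overlap did so by small amounts. At any size of difference, 11 probes did not overlap in this direction and 415 in the other. By the brightest probe these were 6 genes, named after their values were seen, with Epdr1 at -0.61 ± 0.12, Ift57 at -0.47 ± 0.12, Wdr26 at -0.46 ± 0.08, Fam111a at -0.39 ± 0.12, Fyn at -0.39 ± 0.09 and Rnf185 at -0.26 ± 0.09. Wdr26 ranged from -0.02 to 0.53 (median 0.19) in the gland-containing and from 0.61 to 0.76 (median 0.66) in the gland-free arrays, so the gap between the sets was narrow.

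On the first principal component set explained more of the variation between arrays than dose did. That principal component of the 19 arrays held 44.1% of the variance, and set explained 0.519 of it (R2), against 0.0219 for dose group and 0.205 for slide. The second held 16.1%, of which slide explained 0.922, dose group 0.120 and set 0.110. These shares describe arrays that were grouped by 3 of the same genes, whose probes were among those used for the components. Dose group comes from the labels instead, so the ranking of set over dose is no test.

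Dose contrasts were then tested with set as a covariate, with limma's moderated test over 55681 probes, a Benjamini-Hochberg adjusted p of at most 0.05 and a fold of at least 1.5. No probe was called at D1, D2 or D3 against D0, 0% of those tested in each, and 2327, 1621 and 1932 probes had an unadjusted p under 0.05. These p-values set the dose difference against the spread between arrays. The 2 D3 arrays labelled mouse 18 entered as separate, which would count 1 animal more than once if both came from it. The D3 contrast had the smallest limma adjusted p, 0.0611, against 0.444 for D2 and 1.00 for D1. Without the set term 1 probe was called at D3, a noncoding transcript with no gene symbol, with a log2 fold change of 1.54 ± 0.20 (SE), and with the term it had 1.53 ± 0.21 and the limma adjusted p of 0.0611. With the arrays of mouse 18 averaged and no set term 0 probes were called, and the smallest limma adjusted p was 0.0994. Within the 13 gland-containing arrays 0 probes were called at D3, 0% of 55681, and 3990 had an unadjusted p under 0.05. The median residual SD over probes was 0.175 with the set term and 0.176 without it.

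Clock genes had the largest D3 values among the lists of genes that respond to toxicants or time of day, and the set term changed them little. Dbp, a clock output factor, had a log2 fold change at D3 of 2.37 ± 0.42 with set, 2.35 ± 0.40 without it and 2.48 ± 0.49 in the gland-containing arrays, with limma adjusted p of 0.446, 0.359 and 0.694. The highest Dbp of all 19 arrays was in gland-free D2 mouse 15 (0.66) and the lowest in gland-containing D0 mouse 1 (-2.57), and D1 mouse 7 had 0.46. Without D1 mouse 7 the D3 contrast with set called 5 probes, 2 of Dbp, 1 each of the clock genes Tef and Nr1d2, and 1 of the noncoding transcript. Cdkn1a, the cell cycle inhibitor induced by p53, had -0.02 ± 0.11 with set and -0.11 ± 0.12 in the gland-containing arrays. Between the sets, the medians were -0.10 over 20 p53 targets, -0.10 over 10 evening clock genes and -0.05 over 12 proliferation genes, each with a positive sign under median centring, and 0 genes of these 3 lists separated the sets, although 1 p53 target did under median centring and 1 with the log ratio of Feature Extraction.

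The lung of the same mice gave a comparison that the split did not use. Lung arrays of 12 mice with a gland-containing and 5 mice with a gland-free forestomach array were compared with dose group as a covariate, leaving out mouse 18, whose forestomach arrays lay in both sets, and mouse 20, whose forestomach was not analysed here. By limma, 0 of 55681 probes were called, 0%, the smallest adjusted p was 0.999, and 1750 probes had an unadjusted p under 0.05. Some genes that separated the forestomach sets were also measured in lung. Chia1 reached 6.72 and Foxa2 6.12 in lung, and 166 of the 268 genes were well above background on all 19 lung arrays, whereas Gkn2 and Sst reached at most 0.54 and 0.08.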

How the data were processed

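RNA of forestomach and lung was hybridized to Agilent 2-colour mouse arrays of build mm9. The deposited scanner files hold intensity values per spot, read by the authors with Feature Extraction 10.7.3.1, and its log10 ratio. The deposited value table holds log2 ratios, and its column medians lay between -0.0415 and -0.0195. The authors normalized median intensities by LOWESS without background correction.

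Here the median intensities of 59305 non-control spots were normalized by loess within each array, without background correction, in R 4.3.3 with limma 3.58.1. Outlier spots were left out, 0 spots were saturated, and spots of a probe were averaged to 55681 probes. Symbols of 20018 genes came from the RefSeq table of GRCm38.p6, matched by accession for 26413 probes, and each gene was represented by its brightest probe in forestomach. The sets were grouped by the value table. Difference and SE between sets came from a limma fit with dose group. A list score is the mean log2 ratio of its genes. The genes named were all 29 lists and the 15 largest and 15 lowest differences among separating genes, of which there were none lower. Hrh2, Muc6, Flg, Olfm4, Cd68 and Tpsab1 had no probe matched. Members and lists were chosen with earlier results of these data known. Dose and lung contrasts used limma with Benjamini-Hochberg adjustment at 0.05 and a fold of 1.5. The fits were tested on simulated data. Alternatives covered normalization, background, dim probes, slide, scan day, mouse 18 and each array left out.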

Additional observations from a re-analysis of the deposited data

Results flagged for a closer look

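In groups of 4 to 10 arrays, 48 values were examined for an array far from the others, and 5 stood apart. Chance alone sets such an array apart in about 1 in 20 groups. The mean of the splitting genes was 0.0871 in D2 mouse 15, with a gap of 0.951 of the range of the 4 D2 arrays, and 0.131 in array 1 of mouse 18, with a gap of 0.714 of the range of the 5 D3 arrays. Each is the only gland-free array of its dose group, so the split on these values fixes both, and they are no finding. The striated muscle score of D1 mouse 8 was 3.03, with a gap of 0.760 of the range of the 6 gland-free arrays. The aryl hydrocarbon receptor score of D0 mouse 5 was 1.32, with a gap of 0.711 of the range, on an array of a vehicle mouse where Cyp1a1 had a log2 ratio of 3.61. Ctse was lowest among the gland-free arrays in D0 mouse 2, at -1.58, with a gap of 0.781 of the range.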

How the results depend on the processing

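The count of 355 probes that separated the sets was 194 under median centring, 338 with the value table, 358 with normexp, 360 with slide and 350 with scan day as a block, and 389 without both arrays of mouse 18. The log ratio of Feature Extraction, which subtracts background, gave 408 higher and 2 lower, and raised the list medians of acid secretion from 1.91 to 3.64 and of chief cells from 3.53 to 5.17. Leaving out each array in turn gave 344 (without D0 mouse 1) to 485 (without D1 mouse 6). With no minimum difference, chosen after seeing the data, 415 were higher and 11 lower. The D3 contrast with set called 1 probe when dim probes were left out and 1 without the set term. Leaving out each array in turn, it called 0 to 5 (5 without D1 mouse 7, and 1 without D0 mouse 3, D2 mouse 13 or D2 mouse 15), and the D2 contrast 0 to 1 (1 without D1 mouse 7). Leaving out each D0 or D3 array in turn, the D3 contrast within the gland-containing arrays called 0 to 3 (3 without D0 mouse 3). The lung contrast called 0 probes under every alternative run. No result that was called reversed, but the medians of 11 of 29 lists, all within 0.217 of 0 with loess, changed sign under 1 or more of the other scalings (10 under median centring, 5 with Feature Extraction). Mouse as a random replicate block could not be fitted, as 1 pair of arrays gave no estimate of the correlation. No paired analysis was possible because the dose groups share no mouse numbers. For probes near background the ratio depends on the background handling.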
